A study of Mus musculus with 8 samples.

Results

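Fatty acids enter the hepatocyte through membrane proteins and are carried through the cytosol by small binding proteins, and 10 genes of this route were followed in liver RNA from obese, diabetic db/db mice and lean mice. The genes were taken from the deposited expression table by symbol: Cd36, the fatty acid transport protein genes Slc27a1, Slc27a2 and Slc27a4, the lipoprotein uptake genes Lpl and Vldlr, and the fatty acid binding protein genes Fabp1, Fabp2, Fabp4 and Fabp5. All 10 were found among the 22481 genes of the table. The series is titled for RPN11, a proteasome subunit that removes ubiquitin, in nonalcoholic fatty liver disease. RNA sequencing was done on 4 whole liver samples from male mice labelled with the strain db/db and 4 from male lean mice labelled C57BL/6. Mice labelled db/db lack the signalling form of the leptin receptor throughout the body. No mouse received a treatment according to the labels, the ages are not given in the sources used here, and neither is the strain that carries the db allele, so strain and genotype cannot be told apart where the backgrounds differ. Samples were numbered by their titles, and since no label ties a sample to an animal, the p-values cover the spread among the samples sequenced, of whatever source.

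CD36 is a scavenger receptor that moves long-chain fatty acids across the plasma membrane, is abundant in fat, muscle and macrophages, and is a known target of the nuclear receptor PPARγ. The SLC27 proteins (FATP) combine uptake with activation of fatty acids to acyl-CoA, and SLC27A2 is a main form of liver. Lipoprotein lipase (LPL) frees fatty acids from circulating triglyceride, while the VLDL receptor binds triglyceride-rich particles. FABP1 is the liver form of the cytosolic binding proteins and one of the most abundant proteins of the hepatocyte. FABP2 is the intestinal form, FABP4 the form of adipocytes and macrophages, and FABP5 a form found in skin and many other tissues.

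Of the 10 genes, 5 were higher in db/db liver (Cd36, Vldlr, Fabp4, Slc27a4 and Fabp2), 1 was lower (Fabp5), and 4 did not pass the test (Slc27a1, Slc27a2, Lpl and Fabp1). Levels are given in FPKM, which counts sequenced fragments relative to transcript length and library size. A gene was called when its limma test on log2(FPKM + 1) gave an adjusted p below 0.05 over the 10943 genes with at least 0.5 FPKM in at least 4 of the 8 samples. All 10 genes passed that minimum, Vldlr only through the db/db samples. Over all genes tested, 15.5% were called higher and 10.9% called lower in db/db liver, a split that was more even after rescaling (1463 higher and 1382 lower with median ratios, against 1694 and 1198). The FPKM ranges of the groups did not overlap for 6 of the 10 genes, and for 28.4% of all genes tested. The median log2 difference, db/db minus lean, was 0.57 over the 10 genes and 0.041 over all genes tested. The 10 genes were chosen with earlier results of these data known, so these comparisons with all genes are a description.

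The db/db libraries held 13158053 to 16171822 estimated fragments and the lean libraries 12174751 to 14978619. In a principal component analysis, db/db and lean samples were separated on the first axis (63.4% of variance). On the second axis (10.7%), db/db 1 had a score of 29.6, while db/db 2, 3 and 4 had -4.59 or less. Among the 6 called genes, db/db 1 was the db/db sample nearest to the lean mean in 4, so values without it are given where they move a call of a gene described with its values. Sample db/db 1 was singled out after the data were seen, so passes without it are a description. Bulk liver holds several cell types, and fewer cells of a type and less RNA per cell cannot be told apart. Summed FPKM of 9 hepatocyte markers was 12611 to 13919 in db/db liver and 30171 to 36050 in lean liver, with Alb listed at 0 in all 8 samples. Most of the difference in the sum was Apoa1, at 587.8 to 1221 FPKM in db/db liver and 13473 to 18621 FPKM in lean liver, and the other 8 markers summed to 11553 to 12859 FPKM in db/db liver and 16575 to 17429 FPKM in lean liver. Of 8 markers tested, Apoa1, Ttr and Serpina1a were called lower, beside 10.9% of all genes tested. Cps1, Tat, Cyp2e1, Ass1 and F2 were not called. The part of these differences in the results below was not tested.

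The promoters of Cd36 and Fabp1 are shown because Cd36 had the largest difference among the 10 genes and Fabp1 the highest level in both groups, with no call. Sequences are from RefSeq (build GRCm38.p6) and run from 250 bases before to 50 bases after the annotated start, which was given for 7 of the 10 genes and not for Fabp4, Fabp5 or Lpl. Capitals mark matches, on either strand, to AGGTCA (the hexamer bound by many nuclear receptors), to AGGTCANAGGTCA (its direct repeat with 1 spacer base, the type bound by PPAR with RXR, with up to 2 of its 12 fixed letters allowed to differ) and to TATAAA.
Cd36, chr5:17835847-17836146, minus strand: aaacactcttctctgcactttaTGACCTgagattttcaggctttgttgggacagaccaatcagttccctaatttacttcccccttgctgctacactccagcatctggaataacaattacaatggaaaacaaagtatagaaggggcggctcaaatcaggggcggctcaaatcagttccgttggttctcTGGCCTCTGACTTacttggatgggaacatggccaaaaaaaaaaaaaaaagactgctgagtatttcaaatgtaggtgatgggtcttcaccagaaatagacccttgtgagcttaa
Fabp1, chr6:71199629-71199928, plus strand: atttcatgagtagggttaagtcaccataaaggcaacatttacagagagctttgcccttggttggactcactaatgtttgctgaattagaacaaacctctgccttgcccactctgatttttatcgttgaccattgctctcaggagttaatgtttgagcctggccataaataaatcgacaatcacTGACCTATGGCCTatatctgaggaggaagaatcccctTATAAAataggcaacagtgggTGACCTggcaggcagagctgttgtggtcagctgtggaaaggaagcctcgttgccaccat
In the Cd36 promoter the hexamer lay in reverse at -228 from the start, and a repeat with 2 differing letters, TGGCCTCTGACTT, lay in reverse at -63. The Fabp1 promoter held the reverse hexamer at -67 and -9, and the match at -67 was also the first part of a repeat with 1 differing letter, TGACCTATGGCCT. TATAAA lay at -30 in Fabp1. Among the other promoters of the list, Slc27a2 held the reverse hexamer at -220, and none of the 3 motifs was in the windows of Slc27a4, Slc27a1, Fabp2 or Vldlr. Of 32851 RefSeq mouse promoters of the same length, 16.3% held AGGTCA, 3.86% held the repeat with up to 2 differing letters and 13.6% held TATAAA. Each match is a description of letters, and binding at it was not measured. The starts used here for Cd36, Fabp1 and Slc27a2 lie inside the annotated extents of these genes, and the positions above are relative to those starts. Cd36 has several annotated starts. Which starts these livers used was not measured for any of these genes.

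Cd36 (ENSMUSG00000002944, mm10 chromosome 5, 17781690 to 17888801, minus strand) was expressed at 99.9, 100.3, 102.9 and 111.0 FPKM in db/db samples 1 to 4, against 5.21, 6.68, 2.48 and 4.52 FPKM in lean samples 1 to 4. Every db/db sample lay far above every lean sample, and the db/db samples differed little from each other. The mean was 103.5 ± 5.18 FPKM in db/db liver and 4.72 ± 1.74 FPKM in lean liver (SD, n = 4 each), a 21.9-fold difference. The log2 difference was 4.25 with a standard error of 0.20 and a 95% interval of 3.80 to 4.69 (limma adjusted p = 3.51e-07). It ranked 15 of the 10943 genes by log2 difference. The estimate rested on 5700 to 6712 fragments in each db/db library and 131 to 329 in each lean library. The exact permutation p of Cd36 and of each other gene here whose groups do not overlap was 0.0286, the smallest that 4 samples against 4 can give.

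The fatty acid transport proteins were a mixed group. Slc27a4 (ENSMUSG00000059316, chromosome 2, 29802634 to 29817522, plus strand), which encodes FATP4, an acyl-CoA synthetase of very long and long chains, was expressed at 10.1, 11.5, 10.6 and 9.69 FPKM in db/db liver, against 5.01, 3.80, 6.72 and 5.02 FPKM in lean liver. All db/db samples were above all lean samples. The mean was 2.04-fold higher in db/db liver, with a log2 difference of 0.92 ± 0.15 (SE, limma adjusted p = 0.00117).

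Slc27a2 (ENSMUSG00000027359, chromosome 2, 126552407 to 126588243, plus strand), the FATP2 gene, was expressed far above Slc27a1 and Slc27a4, at 867.7, 852.0, 889.8 and 813.9 FPKM in db/db liver, against 766.8, 907.7, 518.2 and 762.7 FPKM in lean liver. Lean 2 was above every db/db sample, while lean 1, 3 and 4 were below them all, lean 3 by the most. The groups thus overlapped through lean 2 alone. The log2 difference of Slc27a2 was 0.24 with a 95% interval of -0.11 to 0.59, which includes 0 (limma adjusted p = 0.291). It was 0.079 without lean 3 and 0.35 without lean 2, and passed in neither case. Set against Slc27a2 within each sample, which removes the scaling of the library, the Cd36 level was 11.5 to 13.6% of the Slc27a2 level in db/db liver and 0.479 to 0.736% in lean liver.

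Slc27a1 (ENSMUSG00000031808, chromosome 8, 71568882 to 71587302, plus strand), the FATP1 gene, best known from muscle and fat, was low at 1.54, 2.40, 1.18 and 1.71 FPKM in db/db liver, against 2.32, 1.20, 1.68 and 1.50 FPKM in lean liver. The ranges of the groups were nearly the same. The log2 difference was 0.018 with a 95% interval of -0.36 to 0.39 (limma adjusted p = 0.951), and its sign depended on the scaling.

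**Figure D1:**
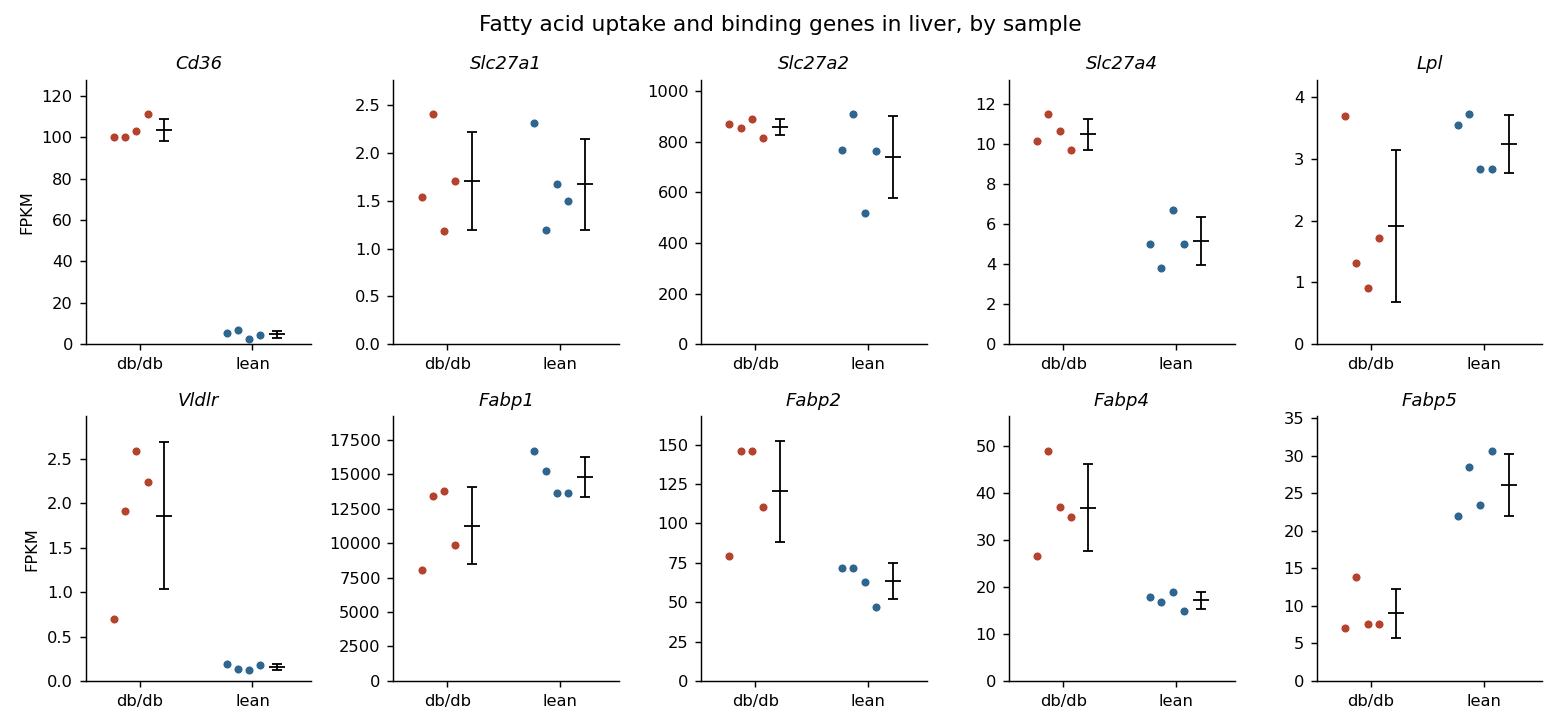
FPKM of each of the 10 genes (vertical axes, each from 0 with its own range) in the 4 db/db samples (red, left) and the 4 lean samples (blue, right), with the mean and SD as bars beside the points. Cd36, Slc27a4, Vldlr, Fabp2 and Fabp4 lie wholly above the lean samples, Fabp5 wholly below them, and db/db 1 (leftmost red point) is the high Lpl value of 3.69 FPKM and the low Vldlr value of 0.695 FPKM.

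Vldlr (ENSMUSG00000024924, chromosome 19, 27216484 to 27254231, plus strand) was expressed at 0.695, 1.92, 2.59 and 2.24 FPKM in db/db liver, against 0.185, 0.135, 0.126 and 0.176 FPKM in lean liver. The groups did not overlap, and db/db 1 was the lowest of the db/db samples. Mean Vldlr was 1.86 ± 0.825 FPKM in db/db liver and 0.156 ± 0.0296 FPKM in lean liver (SD, n = 4 each), a 12.0-fold difference. The log2 difference was 1.25 ± 0.21 (SE, limma adjusted p = 0.00147) on the log2(FPKM + 1) scale, which compresses the change of so low a gene, and 1.76 and 2.81 with pseudocounts of 0.5 and 0.1. Vldlr reached the FPKM minimum in 4 db/db samples and 0 lean samples, so it was tested only through the group where it is high. Lean values rested on 7 to 27 estimated fragments per sample and db/db values on 78 to 299. With limma's voom on the estimated fragments, the log2 difference was 3.46 (adjusted p = 0.00943). The FPKM given per fragment was not the same in all libraries, at 7.35 to 23.1 FPKM per 1000 units of the second deposited measure among lean samples, so lean 4 was higher relative to the others in FPKM than in fragments. The authors' row for Vldlr shares its locus with D19Bwg1357e and Kcnv2, whose annotated extents do not overlap it.

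Lpl (ENSMUSG00000015568, chromosome 8, 68880491 to 68907448, plus strand) was expressed at 3.69, 1.32, 0.911 and 1.72 FPKM in db/db liver, against 3.55, 3.72, 2.83 and 2.83 FPKM in lean liver. Samples db/db 2, 3 and 4 were below every lean sample, and db/db 1 lay within the lean range. Over all 8 samples the log2 difference was -0.62 with a 95% interval of -1.15 to -0.09, and it did not pass the test (limma adjusted p = 0.0826). Without db/db 1 the mean was 1.32 FPKM in db/db liver and 3.23 FPKM in lean liver, 2.45-fold lower, and the difference of -0.88 passed (limma adjusted p = 0.00309). This left out the only db/db sample within the lean range, so the pass is a description. On estimated fragments, voom in limma gave -1.16 (adjusted p = 0.0203). The FPKM given per 1000 units of the second measure was 14.5 to 20.3 among db/db samples, highest in db/db 4 and 2, and 14.5 in each lean sample. The Lpl result therefore depended on 1 library and on the measure. Lpl is low in adult hepatocytes and is also made by macrophages. Summed FPKM of 9 Kupffer cell and macrophage markers was 131.0 to 185.9 in db/db liver and 186.6 to 288.9 in lean liver, and the lowest sum was that of db/db 1. Of these markers, 3 were called lower and 0 higher, beside 10.9% and 15.5% of all genes tested. The part of these cells in the Lpl values was not tested.

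Fabp1 (ENSMUSG00000054422, chromosome 6, 71199827 to 71205023, plus strand) had the highest level of the 10 genes in every sample, at 8023, 13429, 13769 and 9850 FPKM in db/db liver, against 16682, 15226, 13649 and 13638 FPKM in lean liver. Samples db/db 1, 2 and 4 were below all lean samples, and db/db 3 lay within the lean range. The mean was 11268 ± 2797 FPKM in db/db liver and 14799 ± 1460 FPKM in lean liver (SD, n = 4 each). The log2 difference of -0.42 had a 95% interval of -0.85 to 0.0037 and did not pass the test (limma adjusted p = 0.133). Without db/db 1 it was -0.27.

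Fabp2 (ENSMUSG00000023057, chromosome 3, 122895072 to 122899506, plus strand) was expressed at 79.6, 146.0, 145.8 and 110.5 FPKM in db/db liver, against 72.0, 71.7, 63.0 and 47.2 FPKM in lean liver. The groups did not overlap, although db/db 1 came close to lean 1 and 2. The mean was 1.90-fold higher in db/db liver, with a log2 difference of 0.89 ± 0.20 (SE, limma adjusted p = 0.00906). Without the filter on low values, which leaves 22481 genes in the variance fit and in the test, the adjusted p of limma was 0.0689 and the call was lost. All 8 enterocyte markers were below 0.5 FPKM in every sample, with Cdx1, Sis and Alpi listed at 0, and their summed FPKM was 0.199 to 0.434 in db/db liver and 0.231 to 0.579 in lean liver. The locus of the row is shared with Gm10959, whose annotated extent does not overlap Fabp2.

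Fabp4 (ENSMUSG00000062515, chromosome 3, 10204088 to 10208576, minus strand) was expressed at 26.7, 49.0, 37.0 and 34.9 FPKM in db/db liver, against 17.9, 16.7, 19.0 and 14.9 FPKM in lean liver. All db/db samples were above all lean samples, db/db 1 by the least. The mean was 2.15-fold higher in db/db liver, with a log2 difference of 1.04 ± 0.17 (SE, limma adjusted p = 0.00122). Because Fabp4 and Cd36 are also genes of adipocytes and macrophages, the markers of those cells are given here. Beside the counts of these marker lists, 15.5% of all genes tested were called higher and 10.9% lower. Of 11 adipocyte markers, 6 were tested. Retn and Cidea were called higher and Adrb3 lower in db/db liver, each of which passed the FPKM minimum only through the group where it is high. Lep and Ucp1 were listed at 0 in all samples, Plin1 and Aqp7 were below 0.5 FPKM in all, and Adipoq was 0 to 0.286 FPKM in db/db liver and 0 to 0.860 FPKM in lean liver. Retn, which encodes resistin, was 1.58 to 8.36 FPKM in db/db liver and 0 to 0.297 FPKM in lean liver. Cidea, a lipid droplet gene that fatty hepatocytes also express, was 2.24 to 8.28 FPKM in db/db liver and 0 to 0.121 FPKM in lean liver. The summed level of the 11 markers was 1826 to 2648 FPKM in db/db liver and 1845 to 2401 FPKM in lean liver, nearly all of it Car3, which hepatocytes also express. Without Car3 the sum was 10.5 to 20.2 FPKM in db/db liver and 6.62 to 13.3 FPKM in lean liver. Retn and Cidea are part of that sum. Adrb3 went the other way, at 0 to 0.321 FPKM in db/db liver and 1.47 to 4.58 FPKM in lean liver. Lipe, Cfd and Car3 were not called, and their ranges overlapped between the groups. Lipe was 4.32 to 5.54 FPKM in db/db liver and 3.88 to 7.13 FPKM in lean liver. Of 7 markers of lipid-associated macrophages, 2 were tested, with 0 called higher and 1 lower, and their summed level was 35.9 to 60.5 FPKM in db/db liver and 35.4 to 53.8 FPKM in lean liver. Most of that sum was Spp1, also a cholangiocyte gene, and without it the sum was 3.41 to 8.97 FPKM in db/db liver and 6.42 to 8.98 FPKM in lean liver. Endothelial cells also express Cd36 and Fabp4. Of 10 sinusoidal endothelium markers, all tested, 0 were called higher and 3 lower, and their summed level was 87.2 to 100.4 FPKM in db/db liver and 114.2 to 140.2 FPKM in lean liver. Among those not called, Lyve1, Stab2, Pecam1 and Cdh5 had positive log2 differences (0.60, 0.067, 0.089 and 0.035), and Kdr, Flt4 and Oit3 had negative ones. The part of these cells in the Cd36 and Fabp4 values was not tested.

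Fabp5 (ENSMUSG00000027533, chromosome 3, 10012548 to 10016607, plus strand) was the gene of the 10 that was called lower, at 7.04, 13.8, 7.54 and 7.56 FPKM in db/db liver, against 21.9, 28.5, 23.5 and 30.6 FPKM in lean liver. All db/db samples were below all lean samples, and db/db 2 stood above the other db/db samples. The mean was 2.91-fold lower in db/db liver, with a log2 difference of -1.48 ± 0.20 (SE, limma adjusted p = 0.000417). The annotation lists a processed pseudogene, Fabp5l2, whose reads could have been shared with Fabp5 in the authors' counting. Fabp4 and Fabp5 lie close to each other on chromosome 3 and differed between the groups in opposite directions. The Fabp4 level over the Fabp5 level within a sample was 3.54 to 4.91 in db/db liver and 0.487 to 0.815 in lean liver, so Fabp4 was the higher of the pair in all db/db samples and Fabp5 in all lean samples.

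**Figure D2:**
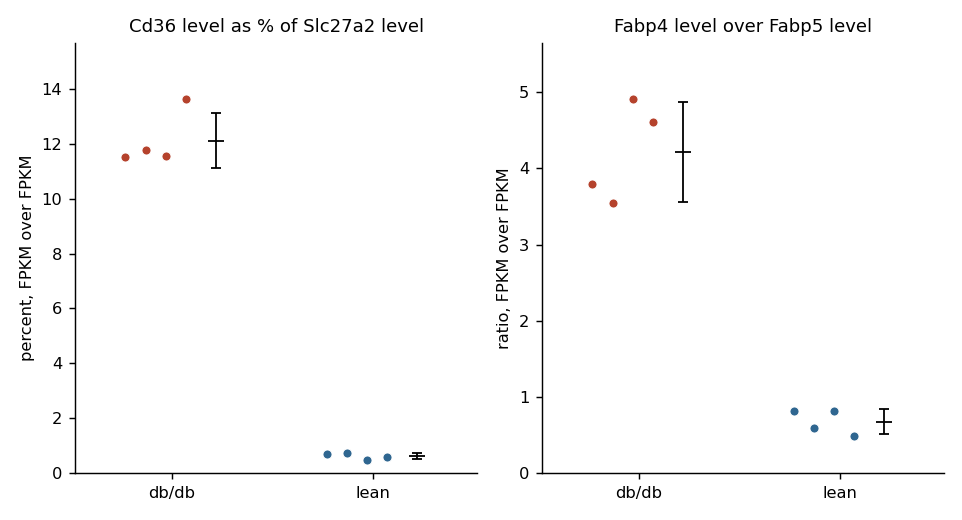
Cd36 level as a percent of the Slc27a2 level (left panel) and Fabp4 level over Fabp5 level (right panel), each FPKM over FPKM within a sample, in the 4 db/db samples (red, left) and the 4 lean samples (blue, right), with the mean and SD as bars. Cd36 is 11.5 to 13.6% of Slc27a2 in db/db liver and below 1% in lean liver, and the Fabp4 to Fabp5 ratio lies above 1 in all db/db samples and below 1 in all lean samples.

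Set together, the 4 binding protein genes summed to 8136 to 13960 FPKM in db/db liver and 13730 to 16794 FPKM in lean liver, and nearly all of it was Fabp1. Fabp1 made up 98.5 to 98.6% of the sum in db/db liver and 99.2 to 99.3% in lean liver. The other 3 genes summed to 113.3 to 208.8 FPKM in db/db liver and 92.7 to 116.9 FPKM in lean liver, ranges that overlapped through db/db 1.

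The order of mean FPKM in db/db liver was Fabp1, Slc27a2, Fabp2, Cd36, Fabp4, Slc27a4, Fabp5, Lpl, Vldlr and Slc27a1. Neighbours with overlapping ranges there were Fabp2 and Cd36, Slc27a4 and Fabp5, Lpl and Vldlr, and Vldlr and Slc27a1. In lean liver the order was Fabp1, Slc27a2, Fabp2, Fabp5, Fabp4, Slc27a4, Cd36, Lpl, Slc27a1 and Vldlr, with overlapping ranges for Slc27a4 and Cd36 and for Cd36 and Lpl. Cd36 was thus at the level of Fabp2 in db/db liver and at the level of Slc27a4 and Lpl in lean liver. Fabp1 and Slc27a2 were the highest and the next highest in every sample of both groups.

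**Figure D3:**
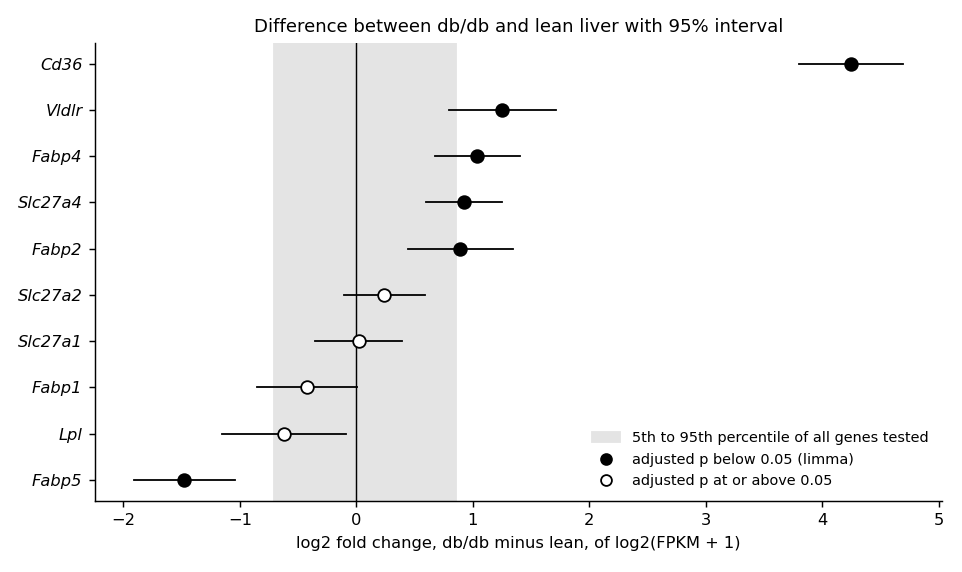
Log2 difference of log2(FPKM + 1), db/db minus lean, of each of the 10 genes (points) with its 95% interval from limma (lines), filled where the adjusted p was below 0.05. The grey band spans the 5th to 95th percentile of all genes tested, -0.71 to 0.85. Cd36 (4.25) and Fabp5 (-1.48) lie farthest from 0.

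By Euclidean distance between centred log2(FPKM + 1) profiles over the 8 samples, the tested genes nearest to Cd36 were Serpinb1a (1.03), Acnat2 (1.15), Orm3 (1.36), Cyp4a10 (1.39) and Gm10020 (1.43). Serpinb1a, an inhibitor of neutrophil proteases, averaged 34.4 ± 11.0 FPKM in db/db liver and 1.63 ± 0.874 FPKM in lean liver (SD, n = 4 each). Acnat2, of a family that conjugates acyl-CoA to amino acids, averaged 49.8 ± 11.2 FPKM in db/db liver and 1.75 ± 0.241 FPKM in lean liver. Orm3, an acute phase protein gene, averaged 62.1 ± 5.73 FPKM in db/db liver and 1.73 ± 0.834 FPKM in lean liver. Serpinb1a, Acnat2 and Orm3 were below the Cd36 level in every db/db sample, and low in every lean sample. Cyp4a10, a fatty acid omega-hydroxylase, averaged 1051 ± 260.9 FPKM in db/db liver and 99.1 ± 26.8 FPKM in lean liver, a higher level in both. Gm10020, a predicted gene, averaged 18.8 ± 3.08 FPKM in db/db liver and 0.694 ± 0.419 FPKM in lean liver. The 5 genes were chosen for this likeness, so their differences are a description, and Serpinb1a, Acnat2, Orm3 and Cyp4a10 have close relatives with which reads could be shared. Within the list of 10, Vldlr was the nearest to Cd36 (4.38) and Fabp5 the farthest (8.17).

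Beyond the 10 genes, 91 further genes of the same route were examined in 5 lists. Of these, 90 were in the table and 72 were tested, of which 16 (22.2%) were called higher and 6 (8.33%) lower, beside 15.5% and 10.9% of all genes tested. The lists were also chosen with earlier results of these data known, so these shares are a description. Among 10 other surface carriers, 8 were tested, 3 were higher and 0 lower, with a median log2 difference of 0.31 against 0.041 for all genes tested. Mfsd2a, a transporter of lysophosphatidylcholine carrying omega-3 fatty acids, averaged 61.4 ± 8.89 FPKM in db/db liver and 8.58 ± 1.90 FPKM in lean liver (SD, n = 4 each), 7.16-fold higher (limma adjusted p = 1.35e-06). Flot2, a membrane raft protein gene, averaged 15.9 ± 1.08 FPKM in db/db liver and 8.17 ± 0.534 FPKM in lean liver, 1.94-fold higher (limma adjusted p = 0.000167). Got2, the mitochondrial aspartate aminotransferase that also has a described form at the plasma membrane, was 1.43-fold higher (limma adjusted p = 0.00312). Slc27a5, which encodes FATP5, a liver fatty acid and bile acid acyl-CoA synthetase, had the highest level of the list at 836.9 ± 103.2 FPKM in db/db liver and 731.5 ± 100.4 FPKM in lean liver. It did not pass the test (limma adjusted p = 0.303) but did so on estimated fragments, where voom in limma gave a log2 difference of 0.50 (adjusted p = 0.0173).

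Of 16 other intracellular lipid binding proteins, 7 were tested, 1 was higher and 1 lower, with a median of 0.15. Scp2, which encodes sterol carrier protein and a peroxisomal thiolase, was 1.60-fold higher (limma adjusted p = 0.00608), a call lost without the filter on low values (adjusted p = 0.054) and with voom on estimated fragments (adjusted p = 0.0644). Dbi, the acyl-CoA binding protein, was the highest of the list at 3516 ± 906.8 FPKM in db/db liver and 2512 ± 244.3 FPKM in lean liver, and did not pass (limma adjusted p = 0.121). It passed without db/db 1 (adjusted p = 0.00244), with library weights (0.0333) and with quantile normalization (0.0138).

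The regulators of lipoprotein lipase and related lipases numbered 19, of which 18 were tested, 6 were higher and 2 lower, with a median of 0.0070. Apoc2, the activator of lipoprotein lipase, averaged 725.2 ± 92.5 FPKM in db/db liver and 444.4 ± 80.3 FPKM in lean liver, 1.63-fold higher (limma adjusted p = 0.00515). Pcsk6, a proprotein convertase that can cleave lipases of this family, was 2.26-fold higher (limma adjusted p = 2.24e-05). Sdc1, a proteoglycan receptor for remnant particles, was 1.74-fold higher (limma adjusted p = 0.0107), a call lost without the filter on low values (adjusted p = 0.072). Lipg and Pcsk5 were also called higher, and Lmf1, a lipase maturation factor, was among those called lower. Each of these 3 calls was lost under at least 1 alternative of the processing, and that of Lmf1 held under 10 of 19 but not, among others, with db/db 1 left out (limma adjusted p = 0.0872). Apoc1, the highest of the list at 15776 ± 1896 FPKM in db/db liver and 17361 ± 1958 FPKM in lean liver, did not pass (limma adjusted p = 0.548).

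Of 16 genes of the LDL receptor family and its partners, 11 were tested, 1 was higher and 0 lower, with a median of 0.0028. Lrp6, a Wnt co-receptor, averaged 6.74 ± 0.757 FPKM in db/db liver and 4.64 ± 0.465 FPKM in lean liver, 1.45-fold higher (limma adjusted p = 0.017), which was lost without db/db 4 (adjusted p = 0.0532). Lrp1, the remnant receptor with the highest level of the list, averaged 136.1 ± 12.9 FPKM in db/db liver and 136.3 ± 17.2 FPKM in lean liver (limma adjusted p = 0.989).

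Of 30 transcription regulators known for genes of this route, 28 were tested, 5 were higher and 3 lower, with a median of -0.0037. Pparg, the PPAR form that drives Cd36 and Fabp4 in fat, averaged 17.7 ± 4.74 FPKM in db/db liver and 3.63 ± 0.603 FPKM in lean liver, 4.87-fold higher (limma adjusted p = 3.62e-05). Rxrg, a partner receptor, averaged 3.95 ± 0.677 FPKM in db/db liver and 1.29 ± 0.368 FPKM in lean liver, 3.05-fold higher (limma adjusted p = 0.000422). Ppargc1a, a coactivator of PPARs, averaged 1.99 ± 0.486 FPKM in db/db liver and 0.458 ± 0.312 FPKM in lean liver, 4.34-fold higher (limma adjusted p = 0.00232). Nfe2l2, which encodes NRF2, a regulator of antioxidant genes, was 2.13-fold higher (limma adjusted p = 0.00287). The other PPAR, RXR and coactivator genes of the list, Ppara, Ppard, Rxra, Rxrb and Ppargc1b, were not called (limma adjusted p = 0.908, 0.989, 0.0643, 0.882 and 0.61), and the list as a whole had 17.9% called higher, near the share of all genes. Which factor acts on which gene was not tested. Stat5b was also called higher, and Cebpa, Atf4 and Bcl6 were called lower. The call of Stat5b held under 8 of 19 alternatives but not with db/db 1 left out (limma adjusted p = 0.0738), and that of Bcl6 held under 15. Hnf4a, the highest of the list at 100.7 FPKM in db/db liver and 121.9 FPKM in lean liver, did not pass (limma adjusted p = 0.0766), and passed without db/db 1 (0.0379), with library weights (0.0356) and with median-ratio rescaling (0.0464).

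**Figure D4:**
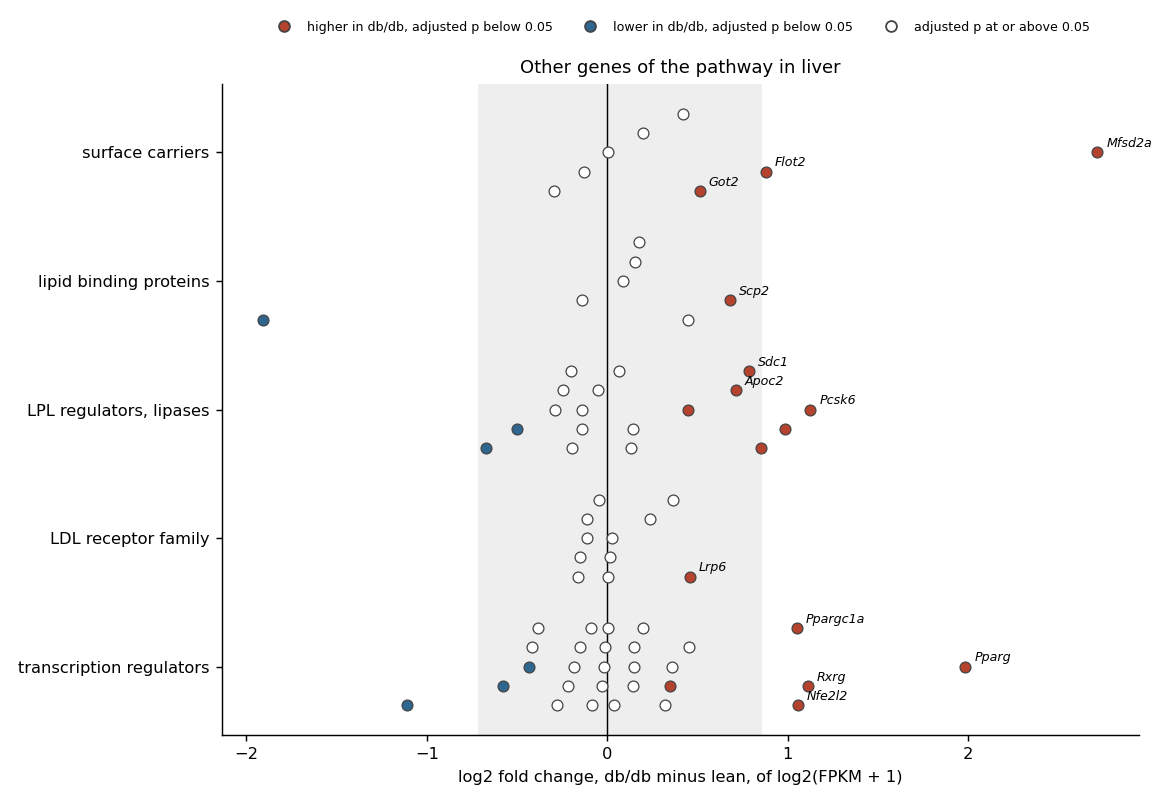
Log2 difference, db/db minus lean, of the 72 tested genes of 5 lists (rows), filled red where called higher in db/db liver, filled blue where called lower and open where the adjusted p from limma was 0.05 or above. The grey band spans the 5th to 95th percentile of all genes tested, -0.71 to 0.85, and the called genes farthest from 0 on the right are Mfsd2a and Pparg.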

How the data were processed

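Liver RNA of 8 samples was measured, 4 db/db and 4 lean, from stranded libraries of total RNA freed of ribosomal RNA, per the labels' protocols. The tools listed were cutadapt (1.9.3), HISAT2 (2.0.4), Cuffdiff and Cufflinks, and the build mm10, per the submitters' processing notes, which are used here without their steps. The deposited table held FPKM per gene and sample, computed by the authors per the file headers. It also held a second measure headed counts whose deposited values were a normalized signal: 91.2 to 92.1% of its low values were whole multiples, within 0.05, of a step of 0.850 to 1.14 per library. The depths and voom used estimated fragments, the second measure divided by that step. Because of this unit, no negative binomial count model was fitted, and voom served as an alternative.

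The 22564 rows were summed by symbol (162 rows of 79 symbols) to 22481 genes, and 5877 rows shared a locus with another row. Genes with FPKM of at least 0.5 in at least 4 of 8 samples, 10943 in all, were tested on log2(FPKM + 1) with limma 3.58.1 in R 4.3.3 (lmFit and trended eBayes, 2-sided), with p-values adjusted by Benjamini-Hochberg over all genes tested and a threshold of 0.05. Folds are ratios of mean FPKM, and log2 differences understate the change of low genes. The p for a single gene was also taken from the exact 2-sided permutation of its 8 values. Replicates of a group differed by more than sampling noise (chi-square per degree of freedom of 13.9 to 86.0). Gene extents are from the GENCODE annotation of mm10 and promoters from RefSeq, and motifs were searched on both strands.

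The 10 genes, the 5 further lists and the marker lists were chosen with earlier results of these data known. Named genes were the 10 genes, for each list the 4 called genes with the smallest adjusted p and the gene with the highest mean FPKM, and the 5 genes nearest in profile to Cd36. A few genes that the rule would name are not reported here and stay in the counts of their lists. Lipg, Pcsk5, Lmf1, Stat5b, Cebpa, Atf4, Bcl6, Ppara, Ppard, Rxra, Rxrb, Ppargc1b and the marker genes given with values were named after their values were seen. Alternatives were other pseudocounts, no filter or a stricter one, median-ratio rescaling, quantile normalization, library weights, a replicate block, no mean trend, voom, the row with the highest mean per symbol and leaving out each sample.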

Additional observations from a re-analysis of the deposited data

Results flagged for a closer look

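Fabp5 in db/db 2, at 13.8 FPKM, lay apart from the other db/db samples, which were at 7.04 to 7.56 FPKM. Its gap to the nearest of them was 0.923 of the range of the group, above Dixon's 95% critical value for 4 samples. It was the 1 such sample among 20 groups of values examined (10 genes in each group of mice), and chance alone flags about 1 in 20. The lean samples were at 21.9 to 30.6 FPKM, so db/db 2 was still below all of them.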

How the results depend on the processing

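Cd36, Slc27a4, Fabp4 and Fabp5 kept their direction and passed the test under all 19 alternatives, and Vldlr under the 18 that gave it a value. Vldlr met the FPKM minimum only through the db/db samples, so its passes are a description of its values. Slc27a2 and Fabp1 kept their direction and passed under none. Fabp2 had the same log2 difference of 0.89 without the filter on low values and no longer passed (limma adjusted p = 0.0689). That setting changed the number of genes tested and also the genes that entered the variance fit. The part of each in the lost call of Fabp2 was not tested. Lpl passed with quantile normalization (-0.70), library weights (-0.79) and voom (-1.16), and leaving out 1 sample moved it between -0.88 and -0.45. Slc27a1 changed sign with median-ratio rescaling (-0.020) and quantile normalization (-0.058), and leaving out 1 sample moved it between -0.10 and 0.13, never past the test. The cause was not tested. The number of the 10 genes called was 5 to 7 over the alternatives, that of the further pathway genes 16 to 24 and that of all genes 2038 to 3179, against 6, 22 and 2892. Quantile normalization called 1479 genes higher and 1457 lower. Leaving out 1 sample moved Slc27a2 between 0.079 and 0.35 and Fabp1 between -0.53 and -0.27. Rescaling moved the median of all genes by less than 0.1 on the log2 scale. At least 1 FPKM in all 8 samples left Lpl and Vldlr without a value.

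Same-numbered db/db and lean samples did not deviate together (r of -0.22 to 0.11), and not every sample correlated best with its own number. No pairing by number was seen, and with 4 samples per group this comparison cannot exclude one. With the replicate block 2514 genes were called, 6 of the 10 genes and 21 of the further pathway genes.

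The lowest depth was behind Vldlr in lean liver, at 7 to 27 estimated fragments per library.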
